A study of Mus musculus with 2 samples.

Results

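Genes for 10 channels and pumps of intracellular calcium transport were examined in mouse cerebral cortex, and 7 of the 10 were represented on the array. They were chosen by name: the IP3 receptors Itpr1, Itpr2 and Itpr3, the ryanodine receptors Ryr1, Ryr2 and Ryr3, the endoplasmic reticulum (ER) calcium pumps Atp2a2 and Atp2a3, and the plasma membrane calcium pumps Atp2b1 and Atp2b2. A probe set, the group of short oligonucleotides that reports 1 transcript on the array, was used where the platform annotation paired it with exactly 1 symbol among these genes. This gave 13 probe sets for 7 genes, out of 10829 probe sets and 8251 genes with 1 symbol. Itpr1, Itpr3 and Atp2b1 had no such probe set and are not analysed here.

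The mice were presenilin conditional double knockouts (PS cDKO) and mice labelled as their controls, all 6 months old, with total RNA of the cortex on 1 array per genotype. Mice of this name are known from published work to lose presenilin through Cre recombinase driven by the Camk2a promoter, which is active in excitatory neurons of the postnatal forebrain. The labels give no alleles, strain, sex or number of animals per array. With 1 array per genotype no difference can be set against variation between animals, no p-value is given, and genes are described by the size of their ratio. In bulk tissue, fewer cells of a type and less RNA per cell cannot be told apart.

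The ER is the main calcium store of the cell. IP3 receptors release its calcium when phospholipase C, activated by receptors at the cell surface, makes IP3, and ryanodine receptors open in response to calcium itself. The Atp2a pumps (SERCA) refill the store, and the Atp2b pumps (PMCA) export calcium across the plasma membrane. Presenilins are proteins of the ER membrane among other sites, and their effect on calcium release from the store has been studied for that reason.

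The median deposited intensity was 305 on the PS cDKO array and 300 on the control array, over 12418 probe sets each. The PS cDKO array was scaled by adding 0.034 on the log2 scale, and all PS cDKO signals below are scaled. Signals under 232, the 40th percentile of both arrays together, were treated as a floor, and 60.9% of probe sets in the PS cDKO and 59.1% in the control lay above it. A ratio is PS cDKO over control. Where 1 array was at the floor the ratio is a bound, written "at least", and where both were, there is no ratio. Psen2, a presenilin gene, had signals of 97.1 in the PS cDKO and 105 in the control, both under the floor, and so gave no check of the genotype. Of the 7 excitatory cortical neuron markers on the array, 6 were above the floor on both arrays, among them Tbr1, Nrgn and Hpca, and Neurod6 was under it.

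In the PS cDKO 1 of 4 Itpr2 probe sets was 1.66-fold higher and the only Atp2b2 probe set 1.28-fold lower, while the ER pumps were close to equal in both genotypes. The other Itpr2 probe sets had signal under the floor on 1 or both arrays and, with no floor, were 1.33-fold, 1.10-fold and 1.03-fold higher. Ratios of dim probe sets leaned upward in general. With no floor their median log2 ratio was 0.11 from the 20th percentile to the floor and 0.18 under the 20th percentile. Of the 13 member probe sets, 6 were above the floor on both arrays, 2 gave a bound and 5 were under the floor on both. Among the 6, 4 were higher and 2 lower (Atp2a2, at 0.01, turned sign under other scalings), where 50.7% of all 6255 such probe sets were higher. Over the 8 with a ratio or bound the median log2 ratio was 0.07, against 0.01 over all 6905. One of the 8 was at least 1.5-fold higher and 0 were at least 1.5-fold lower, where 1.27% and 1.01% of all probe sets were. None of the 8 reached 2-fold, which 0.159% of all probe sets did upward and 0.116% downward.

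**Figure D1:**
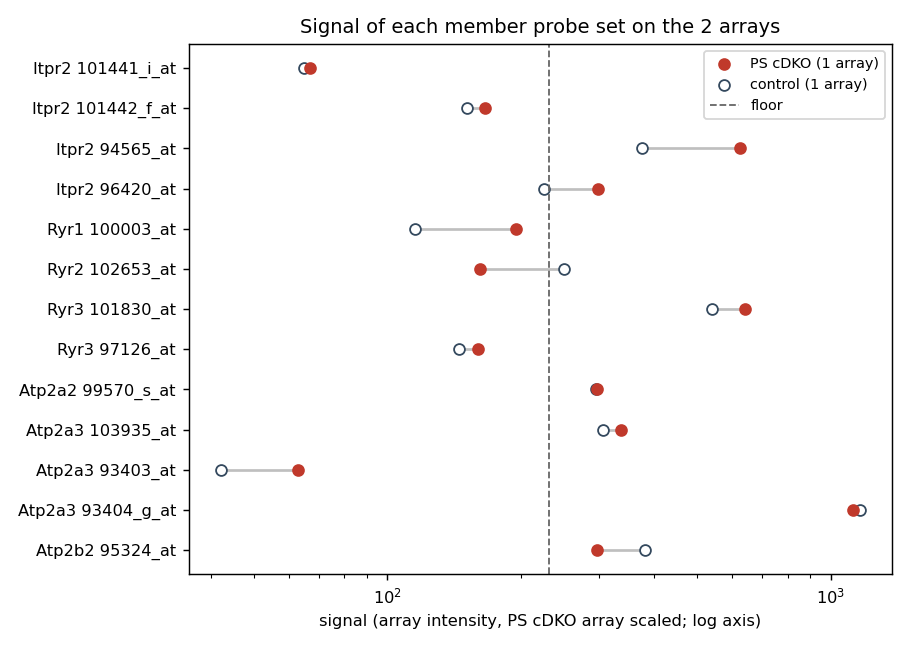
Signal of each of the 13 member probe sets on the PS cDKO array (filled) and the control array (open), on a log axis, with the floor of 232 as a dashed line. Itpr2 94565_at has the widest gap among those right of the floor in both genotypes (623 in the PS cDKO, 376 in the control), and 5 probe sets lie left of the floor on both arrays.

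Itpr2 encodes the type 2 IP3 receptor, the release channel that predominates in astrocytes. Its probe set 94565_at had a signal of 623 in the PS cDKO and 376 in the control, a log2 ratio of 0.73 or 1.66-fold higher. Probe set 96420_at read 299 in the PS cDKO and 226 in the control, where it was under the floor, so that it was at least 1.29-fold higher. The direction of that bound follows from which array passed the floor, so it is no repeat of the ratio of 94565_at.

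The other Itpr2 probe sets were dim on both arrays. Probe set 101442_f_at read 166 in the PS cDKO and 152 in the control, and 101441_i_at read 66.8 in the PS cDKO and 64.9 in the control. They carry 1 and the same source transcript in the platform annotation, and the letters f and i mark designs that take in a sequence family or fewer oligonucleotides than usual. With no floor the Itpr2 log2 ratios were 0.73 for 94565_at, 0.41 for 96420_at, 0.13 for 101442_f_at and 0.04 for 101441_i_at. All probe sets in the signal range of 101442_f_at had a median of 0.11, and those in the range of 101441_i_at one of 0.18. The sign of the dim ratios is therefore no repeat of the ratio of 94565_at.

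The size of the Itpr2 difference can be set beside the scatter of the arrays. Among 4362 probe sets with a mean signal over the 60th percentile, where 94565_at falls, log2 ratios had a robust SD of 0.24 and 2.13% differed by at least 1.5-fold. Over 749 genes with several measured probe sets, the SD of 1 probe set's log2 ratio, taken from the difference between probe sets of the same gene, was 0.21. These figures describe scatter across probe sets of the same arrays and hold no variation between mice.

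Astrocyte and microglia markers were read beside Itpr2. Of 8 measured astrocyte markers 6 were higher in the PS cDKO, where 51.9% of all measured genes were, with a median log2 ratio of 0.21. Their summed signal with 1 marker under the floor was 17245 in the PS cDKO and 14154 in the control. The largest difference was that of the filament gene Gfap, with 2145 in the PS cDKO and 458 in the control, while the water channel gene Aqp4 had 985 in the PS cDKO and 681 in the control. The enzyme genes Aldoc and Glul were lower, with log2 ratios of -0.25 and -0.11, and Fgfr3 was under the floor on both arrays. All 10 measured microglia markers were also higher, against the same 51.9% of all measured genes, with a median of 0.43. Their summed signal, with Aif1 and Fcer1g under the floor, was 11128 in the PS cDKO and 8135 in the control. The complement gene C1qa differed most among them, at 1124 in the PS cDKO and 532 in the control. The part of either cell type in the Itpr2 ratio was not tested.

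Only 1 of the 4 ryanodine receptor probe sets, that of Ryr3, was above the floor on both arrays. Ryr3, a release channel of brain and smooth muscle, had 641 on probe set 101830_at in the PS cDKO and 539 in the control, 1.19-fold higher. Its second probe set, 97126_at, was under the floor on both arrays, with 160 in the PS cDKO and 145 in the control. Without a floor the log2 ratios of the pair were 0.25 and 0.14. The robust SD of log2 ratios in their signal ranges was 0.24 for 101830_at and 0.31 for 97126_at. In the range of 97126_at the median log2 ratio of all probe sets was 0.11.

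Ryr2, the ryanodine receptor of heart and the predominant form of brain neurons, read 161 in the PS cDKO, under the floor, and 251 in the control, just above it. It was therefore at least 1.08-fold lower, in a direction set by which array passed the floor. With no floor its ratio was 1.55-fold lower, or -0.63 on the log2 scale, at a signal where the median of all probe sets was 0.11. Ryr1, the form of skeletal muscle that is also present in brain, read 195 in the PS cDKO and 116 in the control, both under the floor. Without a floor it was 1.69-fold higher. Among the 2179 probe sets of that signal range, from the 20th percentile to the floor, the robust SD was 0.31 and 8.31% differed by at least 1.5-fold, so the values of Ryr1 and Ryr2 come from a range where ratios scattered more than in that of Itpr2 94565_at.

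Markers that share cells with these channels were read alongside. Of the 12 skeletal and heart muscle markers, all on the array, 7 were under the floor on both arrays, among them Acta1, Myh2 and Tnnt3, and the 5 measured ones had a median log2 ratio of 0.04, with the creatine kinase gene Ckm highest at 0.26. Of these 5, 3 were higher and 2 lower. The summed signal of the list, with the 7 markers under the floor, was 6535 in the PS cDKO and 6340 in the control. The 6 measured excitatory neuron markers were all lower in the PS cDKO, where 48.1% of all measured genes were, with a median of -0.51. Their summed signal, with Neurod6 under the floor, was 7971 in the PS cDKO and 11034 in the control. Of 7 measured inhibitory neuron markers 3 were higher and 4 lower, with a median of -0.19 and Sst lowest at -0.55. Of 4 oligodendrocyte markers 2 were higher and 2 lower, with a median of -0.02 and Mobp at -0.44. Among 3 smooth muscle and pericyte markers 1 was higher and 2 lower, with a median of -0.29 and Rgs5 at -0.30. Among 3 choroid plexus markers 1 was higher and 2 lower, with a median of -0.68 and Ttr at -0.88. Cck, a neuropeptide of cortical neurons, was the 1 marker of the excitatory neuron list past 1.5-fold, at 1872 in the PS cDKO and 2843 in the control. Of 3 choroid plexus markers 2 were also at least 1.5-fold lower, where 0.816% of all measured genes were. At least 1.5-fold higher were 4 of 10 microglia markers and 1 of 8 astrocyte markers, where 1.12% of all measured genes were. The part of muscle cells in the Ryr1 values, and of excitatory neurons in those of Ryr2 and Atp2b2, was not tested.

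**Figure D2:**
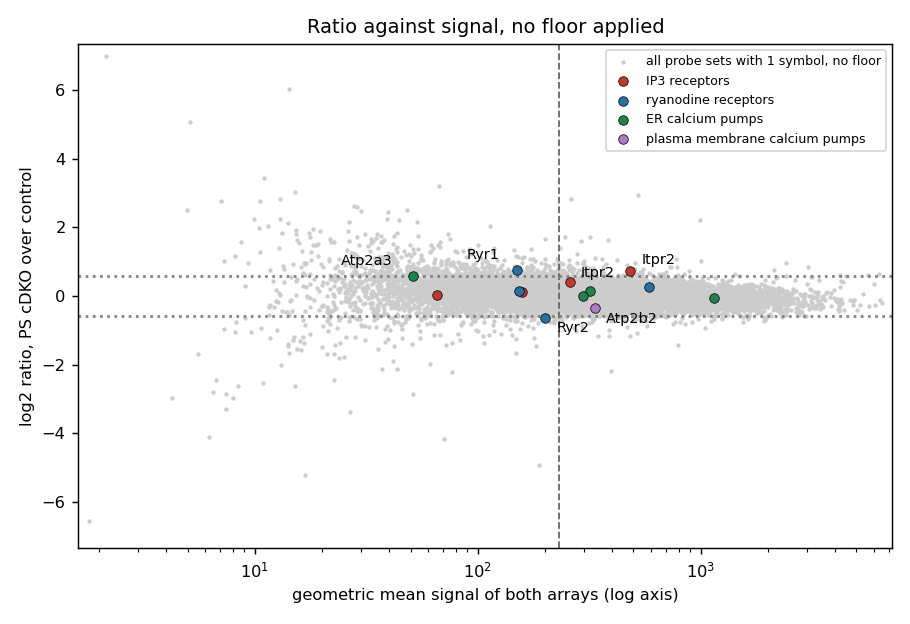
Log2 ratio of PS cDKO over control (vertical axis) against the geometric mean signal of both arrays (log axis) for every probe set with 1 symbol and a positive signal, with no floor applied. Grey points are all probe sets and coloured points the 13 members, the dashed line is the floor of 232 and the dotted lines mark 1.5-fold; the grey points spread as signal falls, and Ryr1 and Ryr2 lie left of the floor line while Itpr2 94565_at lies right of it.

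The ER pumps differed little between the genotypes. Atp2a2 encodes SERCA2, the pump that most cells use to fill the store, and its probe set read 298 in the PS cDKO and 296 in the control, a log2 ratio of 0.01. The letter s in the name of that probe set marks oligonucleotides that can be shared between similar transcripts. Atp2a3 encodes SERCA3, a pump of blood cells, endothelium and some neurons. Its probe set 93404_g_at read 1123 in the PS cDKO and 1167 in the control, a log2 ratio of -0.06, and 103935_at read 336 in the PS cDKO and 306 in the control, a log2 ratio of 0.13.

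The remaining Atp2a3 probe set, 93403_at, read 62.9 in the PS cDKO and 42.1 in the control and had no ratio. It has the same source transcript as 93404_g_at, yet without a floor their log2 ratios were 0.58 and -0.06. In the range under the 20th percentile, where 93403_at falls, the median log2 ratio was 0.18. The robust SD there was 0.47 and 27.3% of probe sets differed by at least 1.5-fold. The gene value of Atp2a3, the mean log2 ratio of its 2 probe sets over the floor, was 0.04. With scaling of the arrays by quantiles or lowess, or without scaling, the sign for Atp2a2 turned, to log2 ratios between -0.05 and -0.02, so no direction is given for it.

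Atp2b2 encodes PMCA2, a fast plasma membrane pump of neurons. It read 298 in the PS cDKO and 381 in the control, 1.28-fold lower, or -0.36 on the log2 scale. In its signal range, from the floor to the 60th percentile, the robust SD of the log2 ratio was 0.26 and 4.28% of 2218 probe sets differed by at least 1.5-fold. Atp2b2 had the lowest ratio of the 6 member probe sets with signal over the floor in both genotypes, and it had a single probe set, so its ratio could not be repeated within the gene.

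Purkinje and granule cells of the cerebellum are rich in Atp2b2 and Atp2a3, and their markers were read as a check on neighbouring tissue. Of the 4 measured ones 3 were higher and 1 lower, with a median log2 ratio of 0.05. Their summed signal with 3 markers under the floor was 6547 in the PS cDKO and 6010 in the control. Pcp2, a Purkinje cell gene, read 3745 in the PS cDKO and 3523 in the control. The patterning gene En2 read 889 in the PS cDKO and 630 in the control. Calb1 was lower, at 532 in the PS cDKO and 611 in the control, and Cbln1 had a log2 ratio of 0.02. Car8, Gabra6 and Zic1 were under the floor on both arrays. Blood cell and platelet markers were read for Atp2a3. Of 5 measured ones 2 were higher and 3 lower, with a median of -0.09 and the globin gene Hba-a1 at -0.45. Their summed signal with Pf4 under the floor was 4222 in the PS cDKO and 4671 in the control. Of 3 measured endothelial markers 2 were higher and 1 lower, with a median of 0.01 and the tight junction gene Cldn5 at -0.44. Their summed signal with Cdh5, Pecam1 and Tek under the floor was 2027 in the PS cDKO and 2009 in the control. The part of these tissues in the pump values was not tested.

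**Figure D3:**
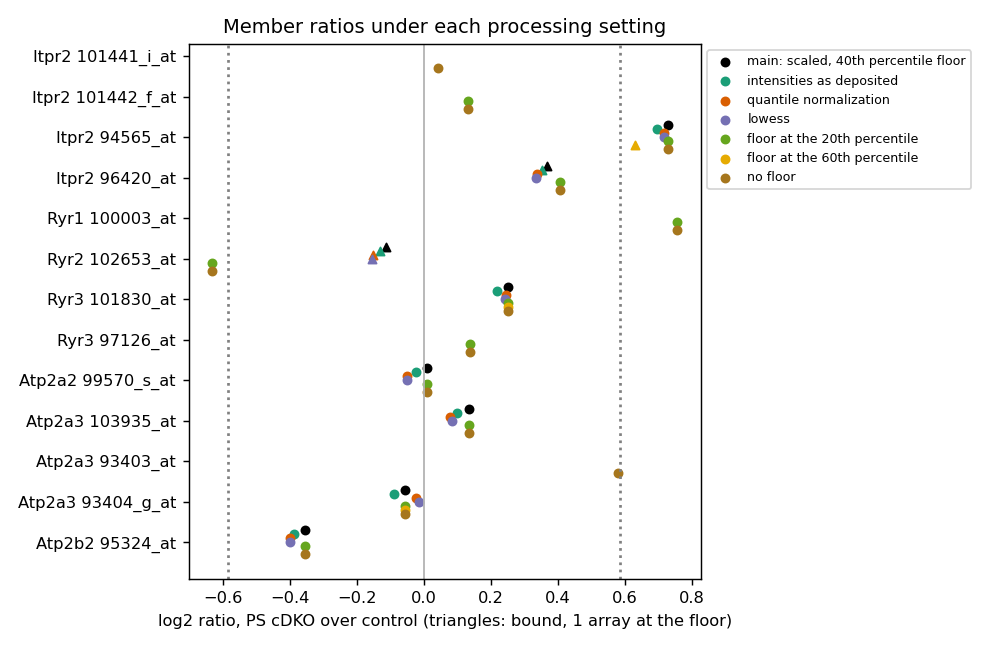
Log2 ratio of PS cDKO over control for each member probe set (rows) under the main processing and 6 alternatives (colours), with triangles for bounds and dotted lines at 1.5-fold. Itpr2 94565_at stays right of the upper dotted line in all 7 settings, and Ryr1 and Ryr2 pass a dotted line only with the floor at the 20th percentile or with no floor.

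Partners and regulators of these channels and pumps were taken from a list of 85 genes, of which 55 were on the array and 44 measured. As a whole the list lay close to all genes: 19 were higher and 25 lower in the PS cDKO, with a median log2 ratio of -0.05, against 0.01 over 5885 measured genes, of which 51.9% were higher and 48.1% lower. The counts by role below are of few genes each and are given as values only. One gene was at least 1.5-fold higher and 0 were at least 1.5-fold lower, where 1.12% and 0.816% of all measured genes were. The gene was Pdia3, an ER protein disulfide isomerase that acts with calreticulin on glycoproteins, with 376 in the PS cDKO and 247 in the control. Its ratio was 1.52-fold, and 1.49-fold, 1.47-fold and 1.46-fold with unscaled, quantile-normalized and lowess-corrected arrays.

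On the side of IP3, the 3 measured genes listed under its removal were all higher, where 51.9% of all measured genes were. Their median log2 ratio was 0.23, and not all of them act on IP3 itself. Inpp1, an inositol polyphosphate phosphatase, read 643 in the PS cDKO and 516 in the control, and Inpp5a, which dephosphorylates IP3 itself, 476 in the PS cDKO and 406 in the control. Of 8 genes of IP3 production 5 were lower, where 48.1% of all measured genes were, and the median was -0.09. Plcd1, a phospholipase C, had 331 in the PS cDKO and 409 in the control, and Plcb1, the phospholipase C isoform that receptors coupled to Gq use in cortex, had a log2 ratio of -0.21 over 3 probe sets.

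Genes for partners and modulators of the release channels had a median of -0.07 over 12 genes, 8 of them lower where 48.1% of all measured genes were. Jph3, the junctophilin that ties the ER to the plasma membrane in neurons, read 844 in the PS cDKO and 1151 in the control, 1.36-fold lower and the lowest of the list. Ahcyl1, which encodes IRBIT, a protein that competes with IP3 for its receptor, read 1491 in the PS cDKO and 1901 in the control, 1.27-fold lower. Fkbp1a and Fkbp1b, which encode the small immunophilins bound to ryanodine receptors, had log2 ratios of -0.23 and 0.14. Homer1 and Homer3, scaffolds that link receptors at the synapse to IP3 receptors, were under the floor on both arrays.

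The calcium-binding proteins of the ER were split, with 6 of 12 higher and a median of -0.02. Besides Pdia3, the chaperone gene Hspa5 was 1.36-fold higher, at 628 in the PS cDKO and 462 in the control, and Casq1, the calsequestrin of skeletal muscle, 1.28-fold higher. Calr, which encodes calreticulin, the main calcium buffer of the ER in most cells, was 1.23-fold lower, at 1411 in the PS cDKO and 1743 in the control.

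Few genes were measured in the remaining groups. Among other pumps and exchangers Atp2a1 (SERCA1, the pump of fast muscle) had a log2 ratio of 0.20 and Atp2c1, a calcium and manganese pump of the Golgi, one of -0.17. Of store-operated entry and leak, Stim1, the sensor of ER calcium, was 1.20-fold lower, and the cation channel Trpc5 1.19-fold higher. All 3 measured genes of mitochondrial calcium uptake were lower, where 48.1% of all measured genes were, and their median was -0.28. Among them Vdac3, an outer membrane channel, read 590 in the PS cDKO and 717 in the control. The chaperone gene Hspa9 read 300 in the PS cDKO and 363 in the control. The 1 pump regulator on the array, Sln, was under the floor on both arrays.

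**Figure D4:**
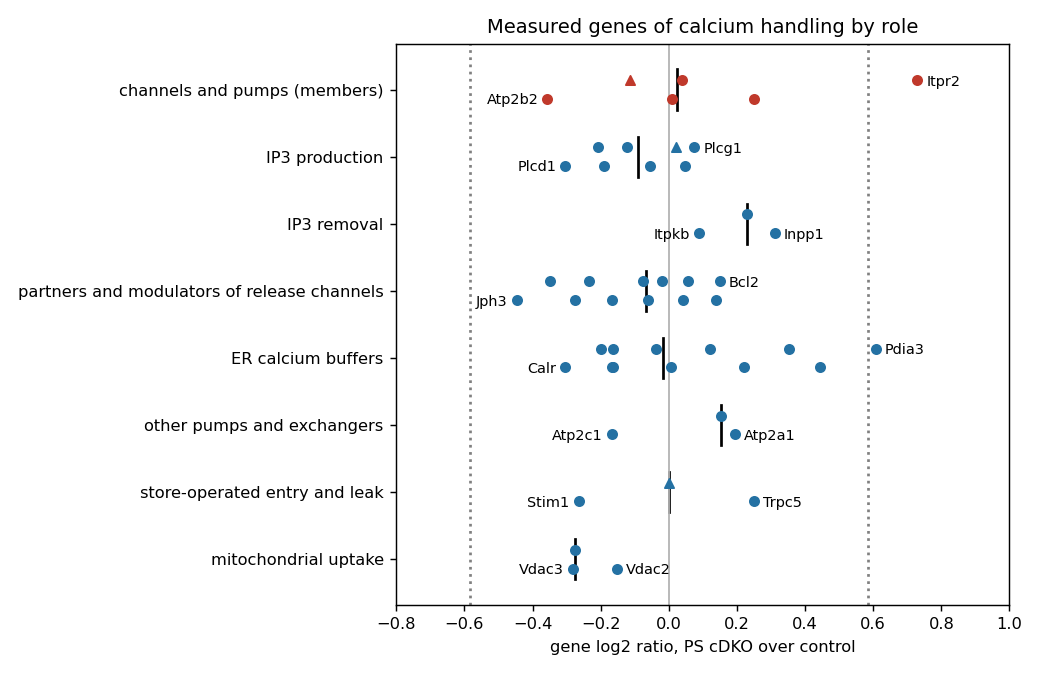
Gene log2 ratio of PS cDKO over control for the 6 measured member genes (top row, red) and the 44 measured genes of the calcium-handling list by role (blue), with triangles for bounds, a black bar for the median of each row and dotted lines at 1.5-fold. Itpr2 at 0.73 and Pdia3 at 0.61 are the points beyond a dotted line, and the lowest and highest gene of each row are named.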

How the data were processed

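The deposited table gives, for each probe set, a linear array intensity in each genotype. Neither the labels nor the file name the software, background step or normalization that the authors used. Deposited intensities below 0 occur (18 on the PS cDKO array, 13 on the control array), so some subtraction preceded deposit. Gene symbols came from the platform annotation, which may be out of date: 10829 probe sets had 1 symbol, 396 several and 1193 none. RefSeq listed the gene ID of 10813 of those with 1 symbol.

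The PS cDKO array was scaled to a median log2 ratio of 0 over probe sets above the median on both arrays, then floored at the 40th percentile (232). Gene values average the probe sets with signal over the floor in both genotypes, or the bounds of genes without one. The robust SD is the scaled median absolute deviation. The steps were run on simulated data with 2-fold changes planted only in probe sets well above the floor. Smaller changes, and changes near or under the floor, were not simulated. Members, the calcium-handling list and the markers were chosen with earlier results of these data known. All member probe sets are named. From each group of the list, the rule names the 2 largest absolute ratios over the floor and any gene past 1.5-fold, and, from each marker list, the gene with the largest absolute ratio. Fkbp1a, Fkbp1b, Calr, Casq1, Aqp4, Aldoc, Glul, Pcp2, Calb1, Cbln1, Tbr1, Nrgn, Hpca and the genes named as under the floor fall outside it and were chosen after their values were seen. The alternatives were unscaled, quantile and lowess (span 0.3) arrays, a floor at the 20th or 60th percentile or none, genes as units and the brightest probe set. Python 3.11.15, numpy 2.4.6, pandas 2.3.3, statsmodels 0.14.6 and matplotlib 3.10.9 were used.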

Additional observations from a re-analysis of the deposited data

How the results depend on the processing

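No paired analysis was possible because there was a single array per genotype, and for that reason no array could be left out. The number of arrays limits the precision of every ratio. Of 43 member probe set ratios recomputed under the alternatives, 41 moved by less than 0.21 on the log2 scale. That is the scatter of 1 probe set over the floor on both arrays. The other 2 were those of Ryr2, -0.63 with no floor and with it at the 20th percentile, where the bound gives way to a ratio. A change of floor cannot move a ratio that stays over the floor on both arrays. Unscaled arrays lower each such ratio by the same 0.034, so the count of 41 was largely fixed in advance and is no test of robustness. Atp2a2 turned sign, without being past a fold threshold. Itpr2 94565_at ranged between 0.63, a bound with the floor at the 60th percentile, and 0.73. The count of member probe sets at least 1.5-fold different, 1 of 8, became 3 of 11 with a 20th percentile floor and 3 of 13 without a floor, since Ryr1 and Ryr2 then had ratios; across all probe sets the percentage rose too, and was 3.85% and 8.59%. The count at 2-fold was 0 in each of the settings run. The members' median became 0.25 over 3 probe sets with the floor at the 60th percentile and 0.13 over 13 with no floor. Over all probe sets the median was -0.008 and 0.047 in those settings. The calcium-handling list's median became -0.081 with unscaled arrays, -0.093 with quantile normalization and -0.010 with no floor. The median of all probe sets was -0.020, 0.002 and 0.047 in these settings. The count of its genes at least 1.5-fold different, 1, became 0 with unscaled arrays, quantile normalization, lowess and the floor at the 60th percentile. Scaling moved the median of all probe sets by less than 0.1.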
